A study of Mus musculus with 12 samples.

Results

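The genes described here are 10 genes of clathrin-mediated endocytosis. Clta and Cltb are the clathrin light chains and Cltc is the heavy chain. Ap2a1, Ap2a2, Ap2b1, Ap2m1 and Ap2s1 are subunits of the AP2 adaptor complex, Picalm is an adaptor, and Dnm1 is a neuronal dynamin. All 10 were taken by gene symbol from the count tables of 2 mouse genotypes. They were found in both, among 9112 genes in the Cre+ table and 14177 in the Cre- table. The genes were chosen with the pull-down results of these libraries known, so that their pull-down values are given as a description with no test, whereas the inputs of both genotypes were tested. Other genes of the pathway were tested gene by gene over all genes, but their lists were also drawn up with earlier results known, so that counts over a list are a description.

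Dorsal root ganglion (DRG) neurons of RiboTag mice were kept in culture for 24 h, and ribosome-associated RNA was isolated with an antibody against the HA tag. RiboTag mice carry an Rpl22 allele, for a protein of the large ribosomal subunit, that gains an HA tag where Cre recombinase is active. The Cre+ mice were Rpl22HA/HA Runx3-Cre+, with Cre driven by Runx3, a transcription factor of proprioceptive neurons. The Cre- mice were Rpl22HA/HA Runx3-Cre- littermates, which carry the same homozygous Rpl22 allele without the driver and served as the background control. In both genotypes, all ganglia of 5 male mice were pooled for a sample, and the labels give an age of 3 to 6 months, older than the range in the methods. Each genotype had 3 pull-down libraries and 3 input libraries, the input being a part of the lysate set aside before the pull-down, 12 libraries in all. The p-values below therefore measure the spread between pooled samples and not between mice.

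Library depth, summed over the genes of a table, lay between 8886308 and 18633365 counts. The pull-downs labelled Cre+ agreed less with each other (Pearson r of 0.695 to 0.839 across genes) than any other group (0.916 to 0.976). Runx3 went against the labels. Its normalized counts were 20.7, 35.9 and 51.2 for pull-downs labelled Cre- and 22.7, 2.07 and 11.1 for those labelled Cre+, against 1.89 to 5.55 in the inputs. The summed proprioceptor markers, Runx3 among them, were 1246 to 1542 for Cre- pull-downs, against 209 to 291 in their inputs, and 351 to 527 for Cre+ pull-downs, against 178 to 241, with Pvalb not listed in the Cre+ table. All directions below are therefore given for libraries as labelled. The summed level of 10 neuron markers was 48759 to 56256 normalized counts for Cre- pull-downs, against 23950 to 28817 in their inputs, and 22281 to 24345 for Cre+ pull-downs, against 20857 to 27394. Of these 10 markers, 6 had a positive log2 fold change in Cre-, with a median of 0.52, and 4 in Cre+, with a median of -0.22. Of 9 Schwann and satellite glia markers, 8 were in the Cre- table, with a sum of 1258 to 1658 in pull-downs and 2755 to 4268 in inputs, and 6 in the Cre+ table, with 1639 to 2265 in pull-downs and 2411 to 3701 in inputs. The glia sums were thus below their inputs without overlap in both genotypes. Fabp7 and Cdh19 were not listed in the Cre+ table, and Erbb3 in neither.

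Clathrin coats bud vesicles from the plasma membrane. A heavy chain and a light chain form the legs of the triskelion that assembles into the lattice, AP2 links the lattice to membrane lipids and to sorting signals of receptors, and dynamin cuts the neck of the vesicle. In sensory neurons this route takes up activated neurotrophin receptors into signalling endosomes, and at nerve terminals it retrieves synaptic vesicle membrane.

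The members form paralog pairs, and the sequences below show how far a read can tell them apart. Each line is a stretch of 30 bases of coding sequence from GENCODE M21 (GRCm38), 5′ to 3′ on the coding strand, and the capitals mark the longest run that both coding sequences of a pair share exactly. Clta and Cltb shared at most 11 bases in a row, at coding bases 124 to 153 of Clta (exon 1, chr4:44012915-44012944, plus strand) and 100 to 129 of Cltb (exon 1, chr13:54611136-54611165, minus strand).
Clta: gagattgcgGGCATCGAGAAcgatgaggcc
Cltb: gagattgctGGCATCGAGAAtgacccgggt
Dnm1 and Dnm3, a paralog outside the group that recurs below, shared at most 26 bases, at coding bases 110 to 139 of both (exon 1, chr2:32353071-32353100 for Dnm1 and exon 1, chr1:162477685-162477714 for Dnm3, both on the minus strand).
Dnm1: taGGCGGCCAGAGCGCCGGCAAGAGCTCgg
Dnm3: tgGGCGGCCAGAGCGCCGGCAAGAGCTCag
Over the aligned coding bases, identity was 65.3% for Clta and Cltb and 73.7% for Dnm1 and Dnm3. Both runs are shorter than the 50-base reads. Ap2a1 and Ap2a2 were 77% identical and shared a run of 68 bases, longer than a read. A single read lying inside it fits both genes, but reads were paired, and a mate outside the run can place the fragment. Of the 50-base words of Ap2m1, 42.5% also occur in Gm13509, and 11.2% of those of Ap2a1 in Fuz, an antisense neighbour that overlaps 16% of the Ap2a1 exon bases. No source says whether strand was used in counting, and uniquely mapped reads alone were counted, so the counts of Ap2m1 and Ap2a1 are uncertain for the share of reads that fits both genes.

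By length-normalized level, all 10 members were above the median gene of their table. In the authors' mean FPKM over the 6 libraries of the Cre+ table, Clta was highest at 139, followed by Dnm1 at 109, Cltb at 91.9, Cltc at 79.2, Picalm at 77.4, Ap2a2 at 56.9, Ap2b1 at 56.8, Ap2m1 at 26.7, Ap2s1 at 23.5 and Ap2a1 at 17.8, with a median of 11.6 over all listed genes. In the Cre- table the mean FPKM of Dnm1 was highest at 174, with Clta at 128 and Cltc at 106, and Ap2a1 was lowest at 18.1, with a median of 5.27 over all listed genes. Being means over pull-downs and inputs, these FPKM values have no error, and the order differed between fractions. In normalized counts per kb of the GENCODE transcript (mean ± SD, n = 3), Clta stood at 169 ± 53.8 in the Cre+ inputs and 144 ± 6.69 in the Cre- inputs, with Cltb close to it at 161 ± 28.6 and 140 ± 6.74, within the spread of the libraries. This closeness depended on the transcript taken. With the length implied by the authors' FPKM, Clta made up 65.4% of both light chains in Cre+ inputs and 62.5% in Cre- inputs. With the GENCODE length these means were 50.8% and 50.7%. Dnm1 had the highest mean in both groups of pull-downs, at 117 ± 22.0 per kb in Cre+ and 258 ± 26.5 in Cre-, where Clta stood at 37.7 ± 6.75 and 93.1 ± 14.3. The SD of Cltb in the Cre+ pull-downs, at 102 ± 64.3 per kb, spans the mean of Dnm1 there. Members made up 0.237% to 0.25% of the counts of the Cre+ inputs, 0.182% to 0.189% of those of the Cre+ pull-downs, 0.229% to 0.25% in the Cre- inputs and 0.279% to 0.29% in the Cre- pull-downs. The share of all members together was thus lowest in the pull-downs labelled Cre+ and highest in those labelled Cre-.

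Clta, on chromosome 4 (44003816 to 44032846, RefSeq coordinates on GRCm38.p6), encodes light chain A. Below, normalized counts are counts per 1000000 after TMM scaling within a table, given for libraries 1, 2 and 3 of a group. In the Cre+ pull-downs Clta had 51.5, 39.8 and 37.0 normalized counts, and in the Cre+ inputs 261, 147 and 168. Every pull-down labelled Cre+ was below every input, and the means were 42.8 ± 7.66 and 192 ± 61.0 (SD, n = 3). The Cre- pull-downs had 116, 86.9 and 114, against 169, 166 and 155 in the Cre- inputs. The pull-downs labelled Cre- were also below their inputs without overlap, but closer to them. The log2 fold change of pull-down over input, estimated with edgeR, was -2.17 (SE 0.36) in Cre+ and -0.63 (SE 0.17) in Cre-, and the difference between both was -1.51 (SE 0.36).

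Cltb, on chromosome 13 (54592386 to 54611373), encodes light chain B, the other form of the clathrin light chain. Its Cre+ pull-downs held 28.6, 150 and 128 normalized counts, against 194, 141 and 149 in the Cre+ inputs. Cre+ pull-down 1 stood far below the others, and pull-downs 2 and 3 lay close to the inputs. The Cre- pull-downs had 116, 116 and 158 normalized counts of Cltb and the Cre- inputs 141, 147 and 133, so that both groups overlapped. The log2 fold change of Cltb was -0.66 (SE 0.53) in Cre+ and -0.11 (SE 0.17) in Cre-. Without Cre+ pull-down 1, the value in Cre+ was -0.18.

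Cltc, on chromosome 11 (86694352 to 86757567), encodes the heavy chain that forms the triskelion legs. Its Cre+ pull-downs had 482, 402 and 484 normalized counts, within the range of the Cre+ inputs at 384, 529 and 527. The Cre- pull-downs held 818, 811 and 922, and all were above the Cre- inputs at 436, 543 and 535. For Cltc the log2 fold change was -0.07 (SE 0.25) in Cre+ and 0.75 (SE 0.15) in Cre-, with a difference of -0.80 (SE 0.26). The heavy chain therefore lay near its input level in the libraries in which Clta was lowest.

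**Figure D1:**
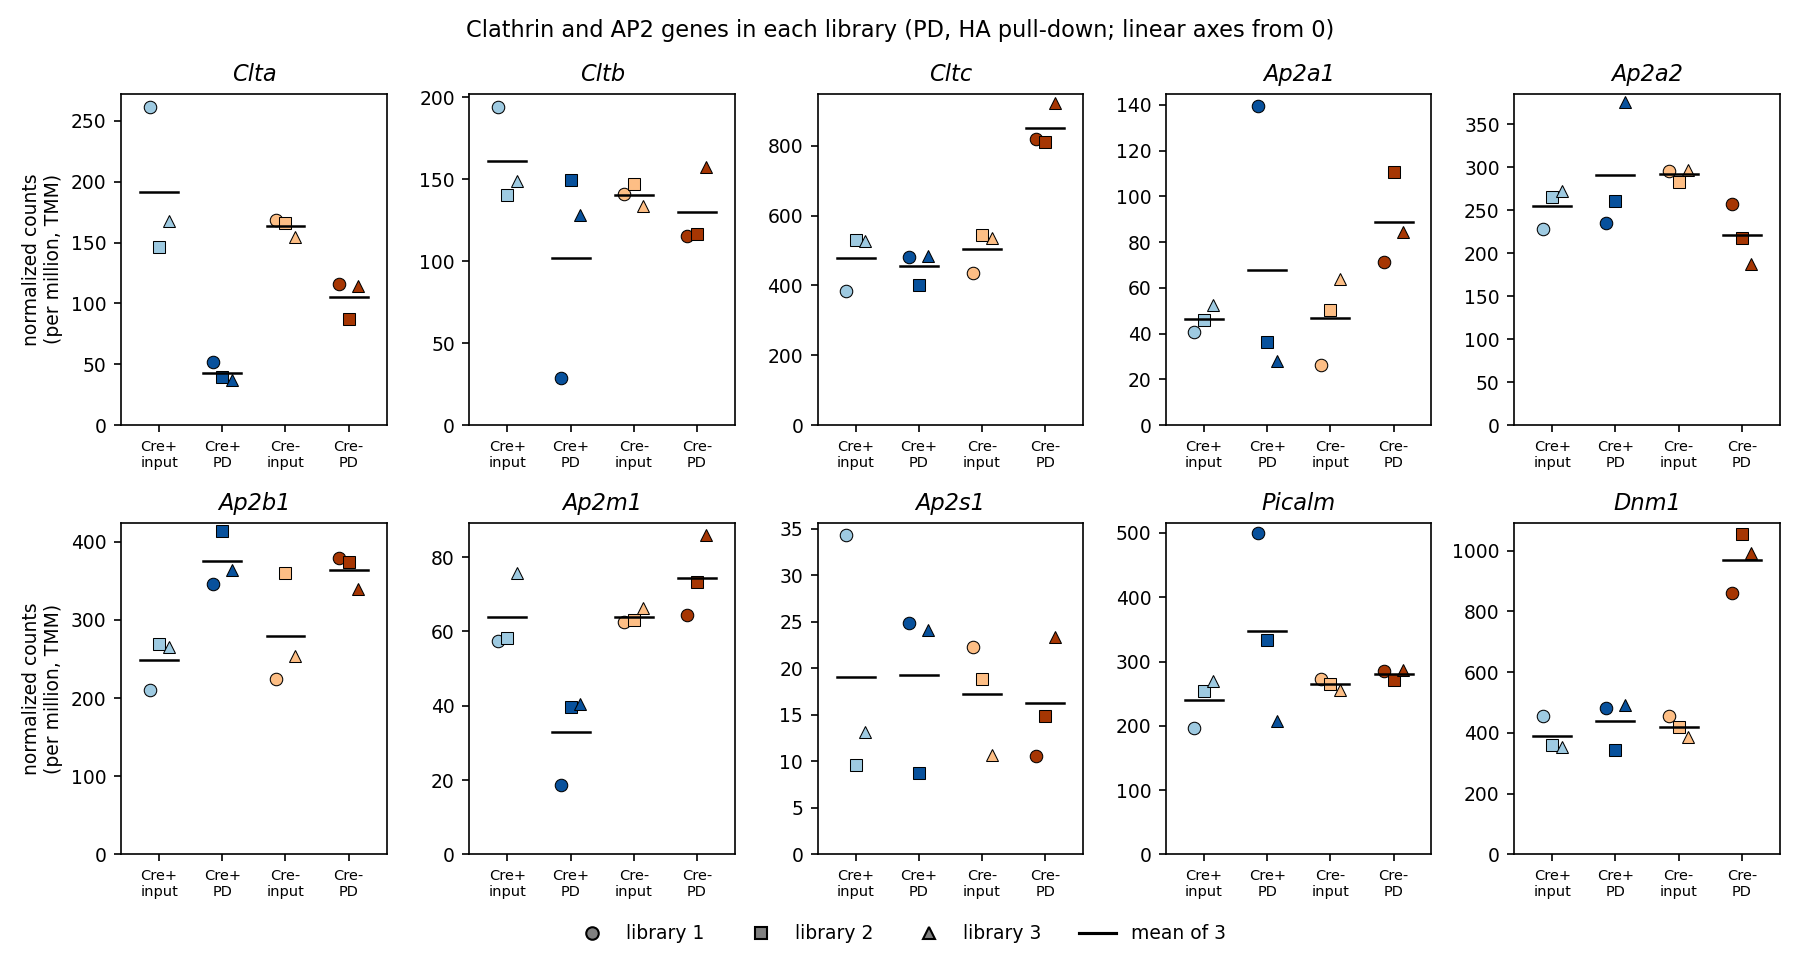
Normalized counts per 1000000 (vertical axes, linear and starting at 0, scaled per gene) of the 10 genes in each of 12 libraries, by group on the horizontal axis (PD, HA pull-down). Points are single libraries, with symbols telling them apart, and lines are the means of 3. Clta is low in all Cre+ pull-downs, Cltc and Dnm1 are high in all Cre- pull-downs, and Cre+ pull-down 1 stands apart for Cltb, Ap2a1 and Ap2m1.

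The AP2 complex holds 1 alpha, 1 beta, 1 mu and 1 sigma subunit. Ap2a1, on chromosome 7 (44900373 to 44929490), and Ap2a2, on chromosome 7 (141562180 to 141633011), encode alternative alpha subunits, which bind membrane phosphoinositides. Ap2a1 had 139, 36.3 and 28.0 normalized counts in the Cre+ pull-downs and 40.6, 46.0 and 52.6 in the Cre+ inputs. Cre+ pull-down 1 was above all inputs and the other two below them, and the log2 fold change of 0.55 (SE 0.61) became -0.49 without that library. In the Cre- pull-downs Ap2a1 had 71.2, 110 and 84.6, all above the Cre- inputs at 26.1, 50.4 and 63.7, and the log2 fold change was 0.92 (SE 0.30). Ap2a2 had 236, 261 and 376 normalized counts in the Cre+ pull-downs and 228, 265 and 273 in the Cre+ inputs, with a log2 fold change of 0.19 (SE 0.28) that ran from -0.01 without Cre+ pull-down 3 to 0.36 without Cre+ pull-down 1. For Ap2a2 the Cre- pull-downs had 257, 218 and 188, all below the Cre- inputs at 295, 283 and 297, and its log2 fold change was -0.40 (SE 0.16). In the libraries labelled Cre-, both alpha genes thus lay on opposite sides of their inputs.

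Ap2b1, on chromosome 11 (83298719 to 83405035), encodes the beta subunit, which binds clathrin. It had 346, 414 and 364 normalized counts in the Cre+ pull-downs, all above the Cre+ inputs at 211, 269 and 266. The Cre- pull-downs of Ap2b1 had 380, 374 and 339 and in the Cre- inputs 224, 360 and 254, where 1 input lay within the range of the pull-downs. The log2 fold change was 0.59 (SE 0.25) in Cre+ and 0.38 (SE 0.18) in Cre-, where it was 0.61 without Cre- input 2 and 0.25 without Cre- input 1.

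Ap2m1, on chromosome 16 (20535480 to 20544909), encodes the mu subunit, which reads tyrosine-based sorting signals. Its Cre+ pull-downs held 18.6, 39.6 and 40.4 normalized counts, all below the Cre+ inputs at 57.4, 58.4 and 75.8. The Cre- pull-downs had 64.4, 73.2 and 85.9 and the Cre- inputs 62.5, 63.0 and 66.3, with overlap. For Ap2m1 the log2 fold change was -0.96 (SE 0.47) in Cre+ and 0.22 (SE 0.18) in Cre-, with a difference of -1.14 (SE 0.46). Without Cre+ pull-down 1 the value in Cre+ was -0.64. Ap2s1, on chromosome 7 (16738444 to 16749290), encodes the small sigma subunit, which reads dileucine signals. It had the fewest counts of the group, 72 to 394 per library. Normalized counts of Ap2s1 were 24.9, 8.77 and 24.1 in the Cre+ pull-downs, 34.4, 9.61 and 13.2 in the Cre+ inputs, 10.6, 14.8 and 23.3 in the Cre- pull-downs and 22.2, 18.9 and 10.6 in the Cre- inputs. Replicates of Ap2s1 within a group differed more than the groups did, and its log2 fold change was 0.02 (SE 0.71) in Cre+ and -0.09 (SE 0.37) in Cre-. Without Cre+ input 1 the value of Ap2s1 in Cre+ was 0.75.

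Picalm, on chromosome 7 (90130192 to 90209447), encodes a clathrin assembly protein that retrieves vesicle SNAREs. It had 501, 333 and 207 normalized counts in the Cre+ pull-downs and 196, 255 and 270 in the Cre+ inputs. The Cre+ pull-downs of Picalm spanned a wide range that overlapped the inputs, and the log2 fold change of 0.53 (SE 0.34) was 0.21 without pull-down 1. In the Cre- libraries Picalm was nearly level, with 285, 271 and 287 in the pull-downs, 273, 265 and 256 in the inputs, and a log2 fold change of 0.09 (SE 0.14).

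Dnm1, on chromosome 2 (32308471 to 32353349), encodes a dynamin of neurons. In the Cre- pull-downs it had 861, 1056 and 993 normalized counts, all above the Cre- inputs at 454, 421 and 387, and the means were 970 ± 99.6 and 421 ± 33.6 (SD, n = 3). In the Cre+ pull-downs Dnm1 had 482, 343 and 491, overlapping the Cre+ inputs at 454, 360 and 354. The log2 fold change of Dnm1 was 1.21 (SE 0.15) in Cre- and 0.17 (SE 0.26) in Cre+, with a difference of -1.003 (SE 0.27). The summed neuron markers, given above, also lay above the input range in every Cre- pull-down and the glia markers below it, and their part in this result was not tested.

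**Figure D2:**
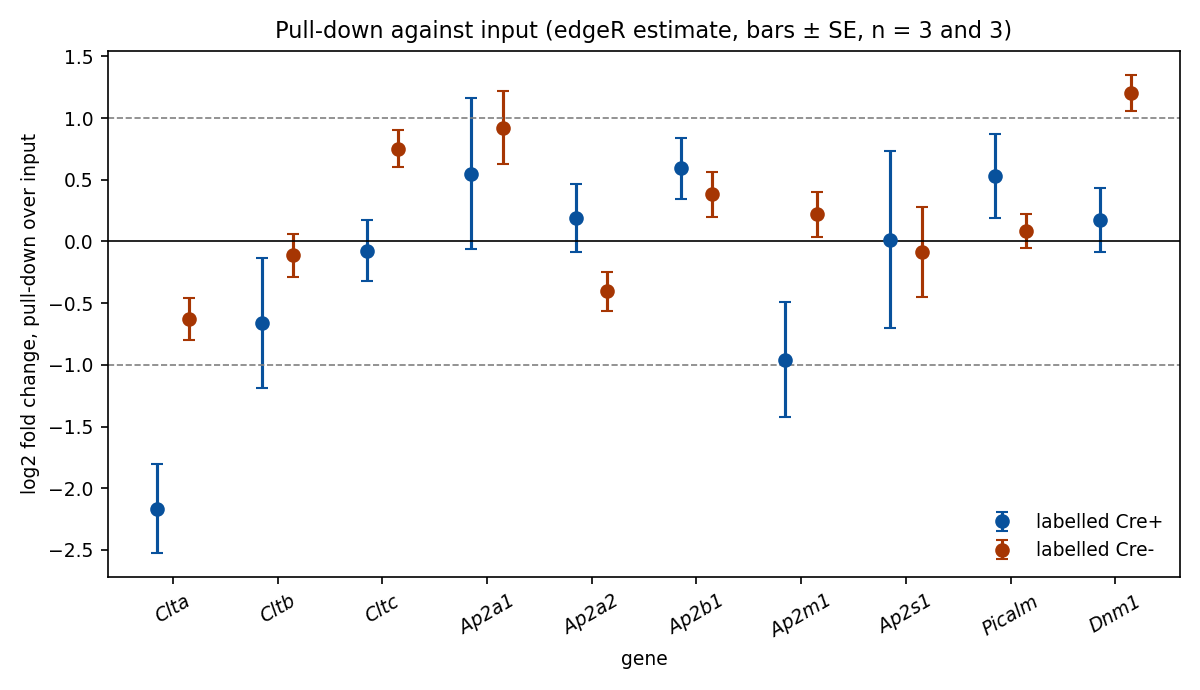
Log2 fold change of pull-down over input (vertical axis) for the 10 genes (horizontal axis) in libraries labelled Cre+ (blue) and Cre- (orange-brown), as edgeR estimates with bars of ± SE (3 pull-downs and 3 inputs each) and dashed lines at a 2-fold change. Clta lies lowest in both genotypes, at -2.17 and -0.63, and Dnm1 highest in Cre-, at 1.21.

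Calls were made at a false discovery rate (FDR) below 0.1 over all genes tested and a change of at least 2-fold. In Cre+, 1 of the 10 members (Clta, lower) was past both cutoffs, beside 6.91% of the 8947 genes tested, of which 4.72% were higher and 2.19% lower. In Cre-, 1 of 10 (Dnm1, higher) was past them, beside 11.8% of 11526 genes. Pull-downs and inputs did not overlap for 3 members in Cre+ (Clta, Ap2b1 and Ap2m1), beside 33.4% of all genes, and for 5 in Cre- (Clta, Cltc, Ap2a1, Ap2a2 and Dnm1), beside 36.8%. For the difference between genotypes, Clta and Dnm1 were past the cutoffs, both lower in Cre+, beside 4.30% of 9006 genes, and in 12 and 8 of the 18 refitted alternatives. Since the genes were chosen from these contrasts, nothing is read from these counts. The median log2 fold change of the members was 0.09 in Cre+ (0.08 over all genes) and 0.15 in Cre- (-0.04 over all genes), and the median difference was -0.43 (0.13 over all genes). Clta was not past the cutoffs in Cre+ when Cre+ input 1 or input 3 was left out, with a log2 fold change of -1.88 without input 1, and its values over all libraries left out ran from -2.33 to -1.88. Scaling by library size alone moved the median of all genes to -0.36 in Cre+ and -0.27 in Cre-. Under it Dnm1 in Cre- fell short of the 2-fold limit (0.97), and the sign turned for Ap2a2 (-0.25), Ap2s1 (-0.45) and Dnm1 (-0.28) in Cre+ and for Ap2m1 (-0.02) and Picalm (-0.15) in Cre-, all of which lay closer to 0 than the shift.

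Ratios between members within a library need no scaling between libraries. They were computed from counts per kb of the GENCODE transcript. Of both light chain transcripts, Clta made up 54.4%, 48.0% and 49.9% in the Cre+ inputs and 51.5%, 50.03% and 50.6% in the Cre- inputs. Its share was 61.4%, 19.1% and 20.4% in the Cre+ pull-downs and 47.0%, 39.8% and 39.1% in the Cre- pull-downs. The inputs of both genotypes thus lay close together, all Cre- pull-downs lay below their inputs, and the Cre+ pull-downs fell on both sides of theirs, with pull-down 1 apart. Clta per Cltc was 3.70, 1.505 and 1.73 in the Cre+ inputs and 0.580, 0.538 and 0.416 in the Cre+ pull-downs. In the Cre- libraries Clta per Cltc was 2.10, 1.66 and 1.57 in inputs and 0.767, 0.582 and 0.674 in pull-downs. In both genotypes all pull-downs were below all inputs in this ratio, and Cre+ input 1 was the highest. Cltb per Cltc was 3.11, 1.63 and 1.74 in the Cre+ inputs and 0.364, 2.28 and 1.63 in the Cre+ pull-downs, which overlapped. In Cre- it was 1.98, 1.66 and 1.53 in inputs and 0.867, 0.880 and 1.05 in pull-downs, which did not overlap. The level of this ratio depended on the transcript taken. With the length implied by the authors' FPKM, mean Cltb per Cltc was 1.39 in Cre+ inputs and 0.92 in Cre+ pull-downs. In Cre- these means were 1.15 and 0.619. Both light chains together were 3.10 to 6.81 times the heavy chain in the 6 inputs and 0.944 to 2.82 times in the 6 pull-downs. The shift of light against heavy chain was therefore present in the pull-downs of both genotypes, although Clta and Cltc each moved by different amounts in them. Clta and Cltb are short transcripts and Cltc a long one. With all genes split by length into 4 classes, the median log2 fold change of the shortest class was -0.69 in Cre+ and -0.36 in Cre-. For the longest class it was 0.79 and 0.26. The part of length in the shift was not tested.

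Among AP2 subunits, Ap2m1 per Ap2b1 was 0.521, 0.416 and 0.547 in the Cre+ inputs and 0.103, 0.183 and 0.212 in the Cre+ pull-downs, all lower. In Cre- the same ratio was 0.534, 0.335 and 0.4999 in inputs and 0.325, 0.376 and 0.485 in pull-downs, which overlapped. The sum of both alpha genes per Ap2b1 was 1.62, 1.47 and 1.57 in the Cre+ inputs and 1.48, 0.905 and 1.38 in the Cre+ pull-downs. In Cre- it was 1.79, 1.18 and 1.82 in inputs and 1.12, 1.19 and 1.08 in pull-downs. Alpha and beta transcripts thus stayed within 0.905 to 1.82 of each other in all 12 libraries. Ap2a1 made up 27.2%, 40.6% and 37.8% of the alpha transcripts in the Cre- pull-downs, against 10.7%, 19.3% and 22.4% in the Cre- inputs, without overlap. In Cre+ the share of Ap2a1 was 19.3%, 19.0% and 20.6% in inputs and 44.3%, 15.8% and 9.12% in pull-downs, where pull-down 1 was again apart. Ap2s1 per Ap2b1 ranged from 0.241 to 1.10 in inputs and from 0.143 to 0.483 in pull-downs. With the transcript length implied by the authors' FPKM, the mean ratio of Ap2m1 to Ap2b1 was 0.721 in Cre+ inputs and 0.242 in Cre+ pull-downs, so the level of this ratio depended on the transcript taken, and the order of its 4 group means did not.

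**Figure D3:**
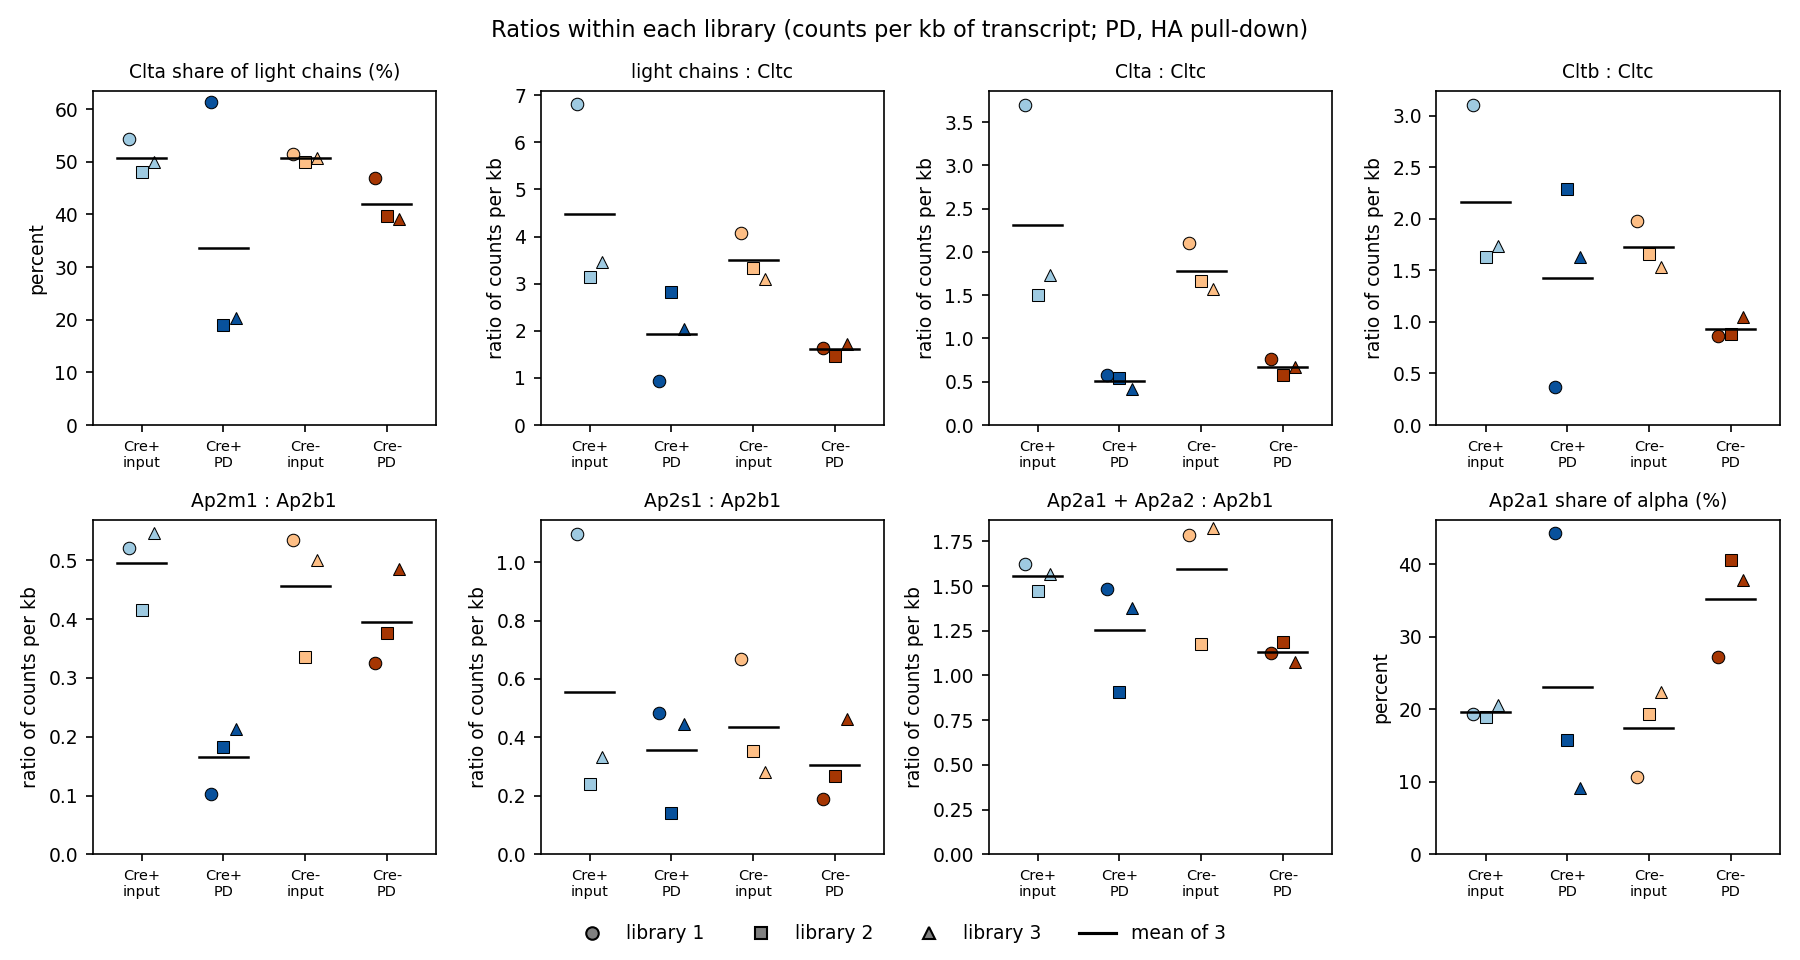
Ratios of counts per kb of transcript between members in each of 12 libraries (vertical axes, linear from 0, as ratio or percent), by group (PD, HA pull-down), with symbols for single libraries and lines for the mean of 3. Clta per Cltc is at most 0.767 in the 6 pull-downs and at least 1.505 in the 6 inputs, and Ap2m1 per Ap2b1 is at most 0.212 in the Cre+ pull-downs and at least 0.325 in the other libraries.

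Fold changes of pull-down over input also went with the length of the transcript, over all genes and over the members alike. Across all genes tested with a known length, Spearman's rho between transcript length and the log2 fold change of pull-down over input was 0.52 in Cre+ (8583 genes) and 0.35 in Cre- (11021 genes). Over the 10 members rho was 0.55 in Cre+ and 0.38 in Cre-, as a description over genes, which are not replicates. For the difference between genotypes rho was 0.29 over 8642 genes and 0.41 over the members, and for the inputs of Cre+ against Cre- it was negative, at -0.28 and -0.81. Genes were also split by length into 4 classes of near-equal size. The median log2 fold change over the shortest class was -0.69 in Cre+ and -0.36 in Cre-, and over the longest class 0.79 and 0.26. Clta (1135 bases), Cltb (1004) and Ap2s1 (836) fell in the shortest class in both genotypes, and Cltc (6163), Ap2b1 (5625) and Picalm (8209) in the longest. These classes and rho used the GENCODE transcript. With the length implied by the authors' FPKM, Picalm (3707 bases in Cre+ and 4022 in Cre-) would fall in class 3 of 4 in both genotypes. In Cre+, Ap2m1 (1933) would fall in the shortest class and Ap2a1 (3097) in class 2. Clta lay below the median of the shortest class in both genotypes, and Ap2s1, the shortest member, above it (0.02 in Cre+ and -0.09 in Cre-). Ap2a2 fell in the longest class in Cre- and lay below its median, at -0.40, and Cltc lay below the median of the longest class in Cre+ (-0.07) and above it in Cre- (0.75). Dnm1 (3764 bases) was at the median of its class in Cre+ (0.17 and 0.18) and above it in Cre- (1.21 and 0.02). The part of length in these results, and in the ratios above between members of unlike length, was not tested.

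**Figure D4:**
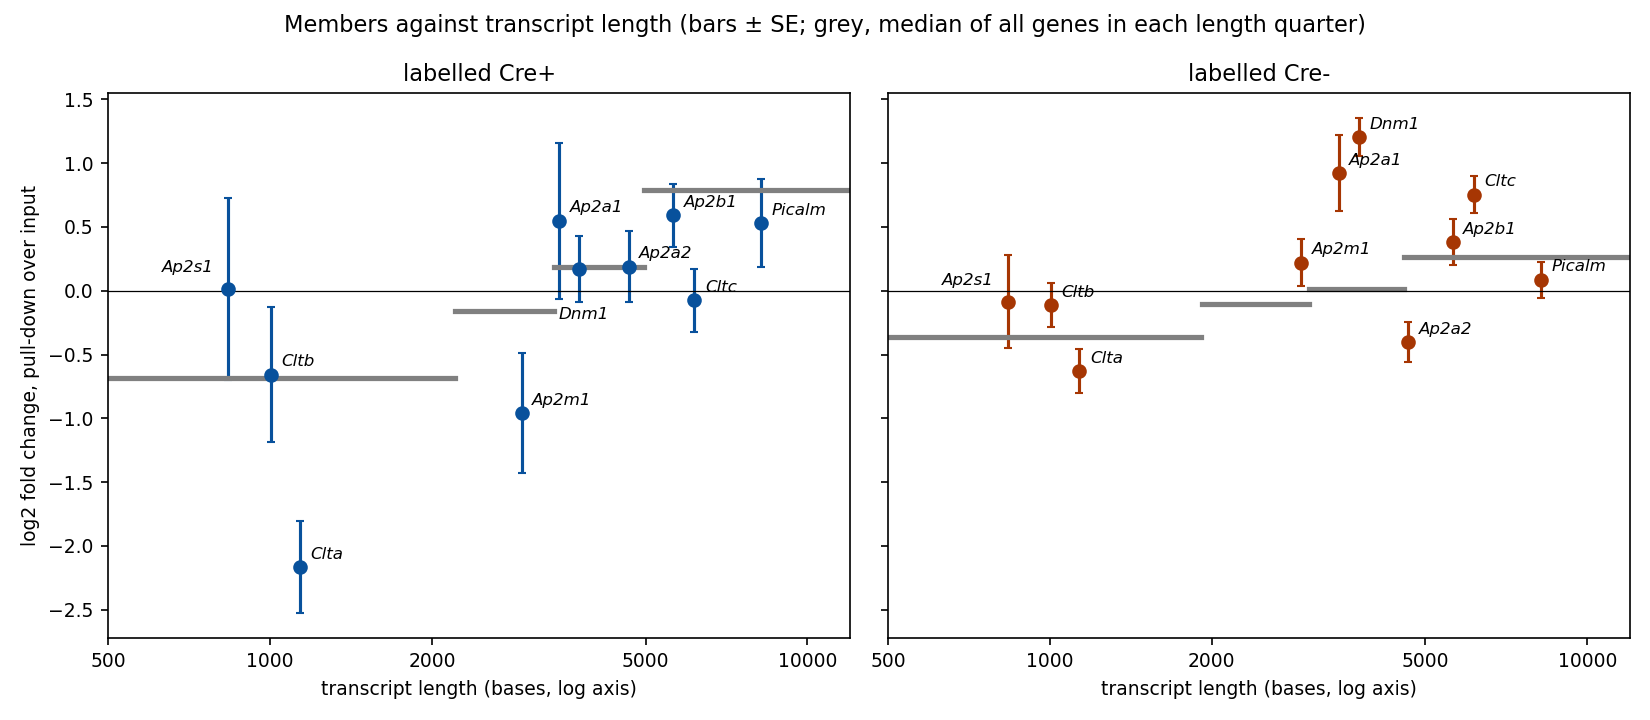
Log2 fold change of pull-down over input (vertical axis, bars ± SE) of the 10 genes against the length of the GENCODE transcript in bases (horizontal, log axis), for libraries labelled Cre+ and Cre-, with grey lines for the median of all genes in each of 4 length classes. Grey lines rise from -0.69 to 0.79 in Cre+ and from -0.36 to 0.26 in Cre-, and Clta sits below the line of the shortest class in both.

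The inputs of both genotypes were compared next, which sets total RNA of Cre+ cultures against that of Cre- cultures. This contrast was not itself used to choose the genes. Both input groups did enter the pull-down contrasts that were known at the choice, so its values are not independent of it. In such bulk samples of separate cultures, fewer cells of a type and less RNA per cell cannot be told apart. None of the 10 members passed the test in edgeR. Their log2 fold changes ran from -0.12 (SE 0.15) for Ap2a2 to 0.30 (SE 0.22) for Clta, with an unadjusted p of 0.155 at the lowest, for Cltb (edgeR quasi-likelihood test), and an FDR of 0.998 for Cltb. The fit used the inputs of both genotypes alone, but overlap was judged on counts scaled over all 12 libraries and the genes in both tables. By that scaling, Cltb was the only member whose groups did not overlap. Its Cre+ inputs were above its Cre- inputs by 0.27 (SE 0.18) on the log2 scale. Groups did not overlap for 7.79% of 9006 genes (3.82% higher and 3.98% lower). With counts scaled within a table, as printed above for Cltb, its groups overlapped. There the lowest Cre+ input, at 140.6, lay below the highest Cre- input, at 147. Without Cre+ input 1 the value for Clta was 0.01 and that for Ap2s1 went from 0.21 to -0.53, neither past the test. Over all 9006 genes edgeR called 0, with 182 (2.02%) at an unadjusted p under 0.05, none of them a member, and DESeq2 called 1 gene, no member. The median over the members was 0.03 and over all genes 0.01.

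The other genes of the pathway were tested in lists by role: adaptors of other clathrin coats, coat nucleation and accessory proteins, cargo adaptors, scission and uncoating factors with their phosphoinositide enzymes, and cargo receptors. Of these 78 genes, 68 were tested in Cre+ and 74 in Cre-. In the pull-downs labelled Cre+, 5 were higher and 1 lower than in the inputs, and in those labelled Cre-, 14 were higher and none lower (edgeR, FDR below 0.1 and 2-fold, beside 4.72% and 2.19% of all genes in Cre+ and 6.01% and 5.83% in Cre-). The median log2 fold change was 0.21 in Cre+ (0.08 over all genes) and 0.32 in Cre- (-0.04). An unadjusted p under 0.05 was found for 12 of 68 genes in Cre+, beside 23.6% of all genes, and for 34 of 74 in Cre-, beside 31.0%. The part of the neuron and glia markers, whose sums are given above, in these calls was not tested.

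Scission and uncoating held most of these calls, with 3 of 21 tested genes higher and 1 lower in Cre+ and 8 of 23 higher in Cre-. The shares over all genes tested were 4.72% higher and 2.19% lower in Cre+ and 6.01% higher in Cre-. Synj1, the phosphatase that strips phosphoinositides from coated vesicles, had 1098, 922 and 1097 normalized counts in the Cre+ pull-downs and 264, 345 and 313 in the Cre+ inputs. In the Cre- libraries Synj1 had 1102, 1274 and 1060 in pull-downs and 336, 364 and 340 in inputs. Synj1 rose in both genotypes, by 1.76 on the log2 scale in Cre+ (SE 0.24, FDR = 0.025) and 1.72 in Cre- (SE 0.14, FDR = 2.79e-05) in edgeR. Dnm3, the dynamin paralog whose sequence is shown above, had 1479, 1209 and 1411 normalized counts in the Cre+ pull-downs against 452, 544 and 453, and 1653, 2453 and 2103 in the Cre- pull-downs against 612, 626 and 498. It rose by 1.5 in Cre+ (SE 0.23, FDR = 0.026) and 1.84 in Cre- (SE 0.17, FDR = 5.2e-05), so that Dnm3 rose in both genotypes and Dnm1, as described, lay above its inputs in Cre- alone. The difference in enrichment between genotypes was -0.31 for Dnm3 (SE 0.26, FDR = 0.532). Of the 68 genes tested in both genotypes, Synj1 and Dnm3 were the 2 called higher in both, of 5 called higher in Cre+ and 13 in Cre-.

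Hspa8, the chaperone that removes the clathrin lattice, had 195, 240.0 and 202 normalized counts in the Cre+ pull-downs and 480, 491 and 514 in the Cre+ inputs, and fell by 1.22 (SE 0.24, FDR = 0.042, edgeR). In the Cre- pull-downs Hspa8 had 475, 396 and 374 against 498, 511 and 518, a log2 fold change of -0.29 (SE 0.15) that did not pass. Processed copies of Hspa8 are known, and how far they share its reads was not tested. Ocrl, an inositol phosphatase of coated pits, rose by 1.39 in Cre+ (SE 0.40, FDR = 0.0949) and had a log2 fold change of 0.02 (SE 0.18) in Cre-. The call of Ocrl held in 7 of 13 refitted alternatives, and was lost under upper-quartile scaling (1.15), under library size alone (0.92), without any of the Cre+ inputs and without Cre+ pull-down 3. In Cre-, Amph rose by 1.62, Pacsin2 by 1.15, Sh3gl2 by 1.15, Pip5k1b by 1.44 and Inppl1 by 1.54, with FDR of 8.17e-05 to 0.00719 in edgeR. None of them was called in Cre+, where Inppl1 had 1.74 (SE 0.80, FDR = 0.223, edgeR) and Pip5k1b 0.80 (SE 1.05). Pacsin2 had 0.54 (SE 0.69) there, Amph -0.17 (SE 0.43) and Sh3gl2 -0.003 (SE 0.35). In the fit of all 12 libraries the calls of Pacsin2 (FDR = 0.351), Pip5k1b (FDR = 0.454) and Inppl1 (FDR = 0.24) were lost, and under library size alone Pacsin2 (0.92) and Sh3gl2 (0.90) fell short of the 2-fold limit. Amph and Sh3gl2 encode amphiphysin and endophilin A1, BAR domain proteins that bend the vesicle neck and recruit dynamin and synaptojanin. Pip5k1b makes the phosphoinositide that AP2 binds, and Inppl1 encodes a phosphatase of phosphoinositides.

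Over all genes tested, edgeR called 4.72% higher and 2.19% lower in Cre+, and 6.01% higher and 5.83% lower in Cre-. Its unadjusted p was under 0.05 for 23.6% of all genes in Cre+ and 31.0% in Cre-. Among coat nucleation and accessory proteins, 0 of 14 tested genes were called in Cre+, where 3 had an unadjusted p under 0.05. In Cre-, 5 of 16 were higher. Those named by rank are Aak1, the kinase of the AP2 mu subunit (1.24, SE 0.13, FDR = 0.00011), Snap91, the neuronal relative of Picalm (1.28, SE 0.19, FDR = 0.000855), Sgip1 (1.05, SE 0.18, FDR = 0.00201) and Itsn1, a scaffold that binds dynamin and epsins (1.02, SE 0.24, FDR = 0.0115). The log2 fold change of Aak1 in Cre+ was 0.94 (SE 0.24), short of the 2-fold limit. For Itsn1 it was 1.14 in Cre+ (SE 0.39, FDR = 0.127, edgeR), at least as large as in Cre- but not called. Snap91 had -0.07 (SE 0.28) and Sgip1 0.10 (SE 0.37) in Cre+. Sgip1 fell short of the 2-fold limit without Cre- input 2 (0.93) or Cre- pull-down 3, and Itsn1 without Cre- input 1 (0.82) or Cre- pull-down 2. Under library size alone Aak1 (0.998), Sgip1 (0.81) and Itsn1 (0.78) fell short of it, and Itsn1 was also lost under upper-quartile scaling (0.99) and in the fit of all 12 libraries (FDR = 0.123). Of 17 tested adaptors of other coats, which serve the trans-Golgi network and endosomes, none was called in Cre+ or Cre- by edgeR, with 0 and 8 at an unadjusted p under 0.05. Of the cargo adaptors none of 7 was called in Cre+ and none of 8 in Cre-, with 0 and 3 at an unadjusted p under 0.05.

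Of the cargo receptors, Lrp1, an endocytic receptor for lipoproteins and proteases, had 208, 96.6 and 116 normalized counts in the Cre+ pull-downs and 12.1, 17.0 and 23.1 in the inputs. Lrp1 rose by 3.01 (SE 0.47, FDR = 0.026, edgeR) in Cre+. In the Cre- pull-downs Lrp1 had 57.5, 18.1 and 23.3 against 20.7, 20.96 and 12.8, with a log2 fold change of 0.87 (SE 0.41) that did not pass. Igf1r, the receptor of insulin-like growth factor, had 512, 369 and 486 in the Cre+ pull-downs against 129, 202 and 166, and rose by 1.46 (SE 0.28, FDR = 0.0406). In Cre- Igf1r was level, at 173, 207 and 175 against 148, 211 and 188. Sort1, a sorting receptor that also binds proneurotrophins, had 71.9, 78.0 and 76.3 in the Cre- pull-downs against 10.0, 18.2 and 18.6, and rose by 2.27 (SE 0.26, FDR = 0.000149). In Cre+ Sort1 had 15.5, 17.4 and 25.04 in pull-downs and 18.8, 17.5 and 18.4 in inputs.

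**Figure D5:**
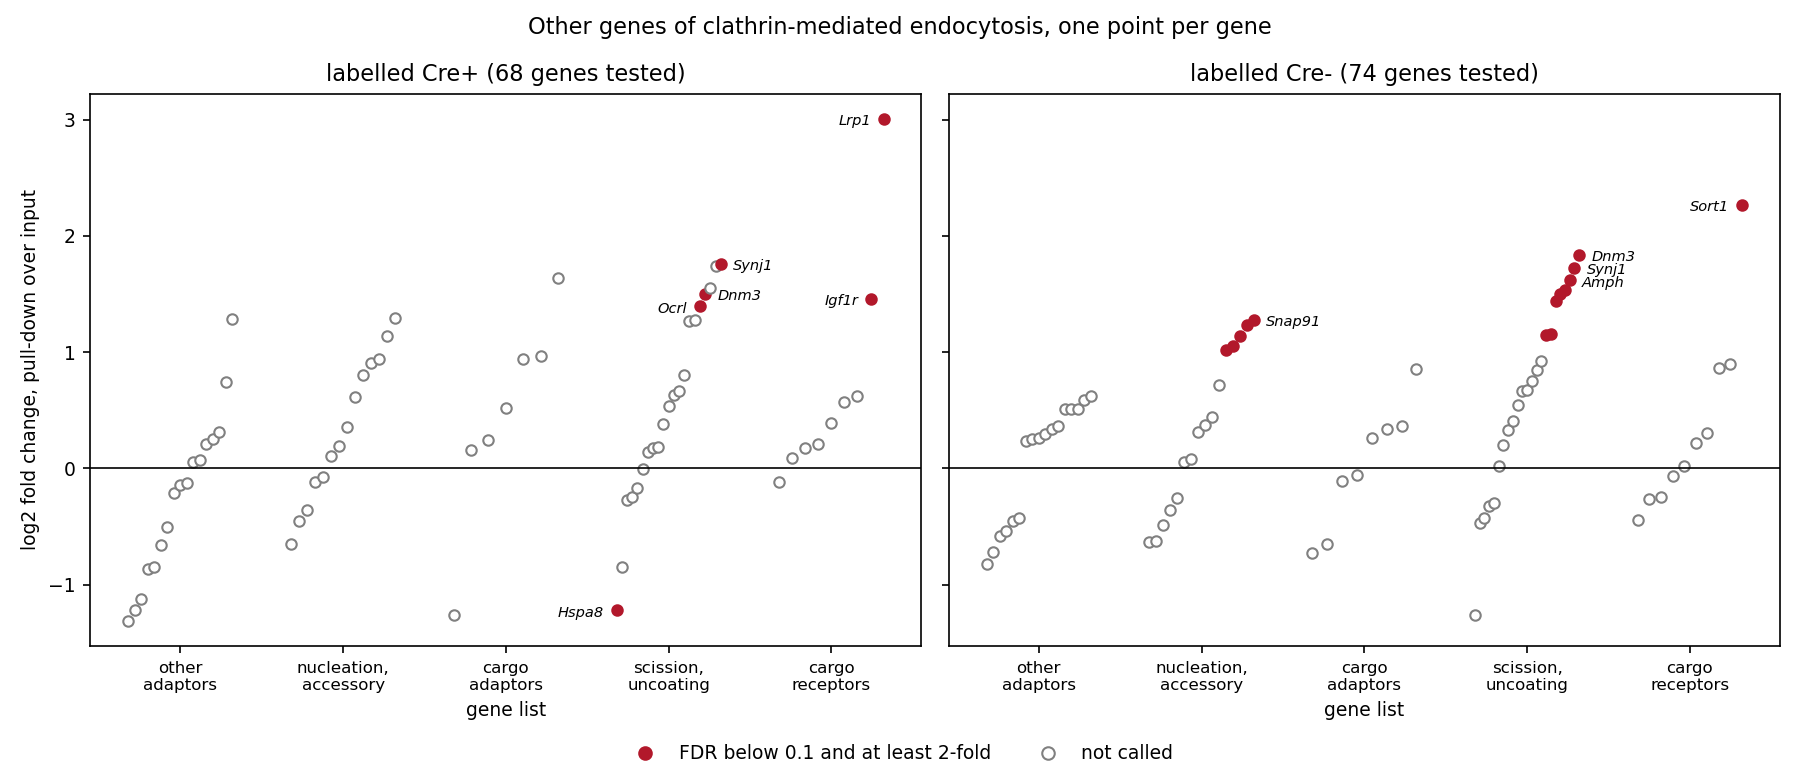
Log2 fold change of pull-down over input (vertical axis) of the other pathway genes, 1 point per gene, by gene list (horizontal axis), for libraries labelled Cre+ (68 genes tested) and Cre- (74). Filled points passed an FDR below 0.1 and a 2-fold change, 5 higher and 1 lower in Cre+ and 14 higher in Cre-, and some of them carry their names.

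The calls in Cre+ depended on single libraries. Without Cre+ input 1 or Cre+ input 3, 0 pathway genes were called in Cre+, and without Cre+ input 2, 3 were higher. Over all genes, 7 were called higher without Cre+ input 1 and 4 without Cre+ input 3, and 0 lower in both. The fold changes moved little. Without Cre+ input 1 they were 1.66 for Synj1, 1.45 for Dnm3, 2.81 for Lrp1, 1.31 for Igf1r, 1.22 for Ocrl and -1.24 for Hspa8. Without Cre+ pull-down 1, 12 pathway genes were higher and 6 lower, beside 803 and 540 over all genes. Without Cre+ pull-down 2, 6 were higher and 2 lower, beside 654 and 354. Without Cre+ pull-down 3, 4 were higher and 1 lower, beside 320 and 116. Endothelial markers summed to 98.7 to 427 normalized counts in the Cre+ pull-downs, against 47.8 to 83.2 in their inputs, over 4 of 5 markers listed (not Cldn5), and their part in the calls was not tested.

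The difference in enrichment between genotypes was tested for the pathway genes in a fit of all 12 libraries. Of 68 tested, 1 differed with a higher enrichment in Cre+ and 3 with a lower one (edgeR, beside 4.30% of 9006 genes called in either direction), and 14 had an unadjusted p under 0.05, beside 19.5%. Igf1r differed by 1.47 (SE 0.32, FDR = 0.0402). Sort1 differed by -2.15 (SE 0.51, FDR = 0.062), Amph by -1.76 (SE 0.43, FDR = 0.0663) and Snap91 by -1.31 (SE 0.33, FDR = 0.0689). In Cre+ alone the log2 fold changes were 0.09 for Sort1, -0.17 for Amph and -0.07 for Snap91, so that all 3 lay near their inputs there. The 4 differences kept their sign under the 18 refitted alternatives. On leaving out each of the 12 libraries in turn, Sort1 and Amph lost the call 8 times, Snap91 7 times and Igf1r 4 times, and at an FDR of 0.05 Igf1r alone passed. Pathway calls of the difference numbered 6 higher and 12 lower without Cre+ pull-down 1, where 632 of all 9006 genes were called higher and 601 lower. They numbered 0 without Cre+ input 3, Cre- input 2, Cre- input 3 or Cre- pull-down 3. In these refits 13 to 38 of all genes were called higher and 30 to 69 lower.

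Across the 12 libraries, the gene with the pattern most like that of Clta, out of all genes past the filter, was Manf (Pearson r of 0.983 on log2 normalized counts), followed by Tcp1 (0.975) and Rnf5 (0.972). For Cltc they were Kifap3 (0.974), Fam115a (0.938) and Magee1 (0.938). Between members, Cltc and Dnm1 went together most closely (r of 0.827), and Cltb with Ap2m1 (0.792), whereas r was -0.815 for Cltb and Picalm and -0.811 for Clta and Ap2b1. These coefficients describe 12 libraries that fall into 4 groups, and points of a group share its preparation.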

How the data were processed

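RNA-seq of HA pull-downs and inputs of cultured DRG neurons was grouped by the genotype and RNA fraction in the labels. The authors aligned 50-base paired reads to mm10 with STAR at default parameters and deposited, per genotype, the count of uniquely mapped fragments per gene and library from HTSeq on the refSeq refFlat annotation, with the mean FPKM over the 6 libraries as the authors computed it. The deposited counts are raw whole numbers. The submitters' processing notes also name CASAVA 1.8.2 and edgeR. The tables further hold the authors' fold changes, p-values and FDR, which were not used, and 18 further per-sample columns were not used. Libraries of the Cre+ table were assigned to their group only, because their column names also resemble titles of Cre- samples, so their numbers only tell libraries apart. The methods name rRNA removal and an amplification kit that differs from the one in the labels.

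Genes past a deposited mean FPKM of 1 entered edgeR 4.0.16 (TMM, robust quasi-likelihood fits, glmQLFTest, Benjamini-Hochberg over all genes tested) in R 4.3.3, on the 6 libraries of a genotype, the 6 inputs, or all 12 libraries for the difference. The SE is the size of the log2 fold change divided by the square root of F. DESeq2 1.42.0, other filters, scalings and thresholds, all 12 libraries in one fit, a replicate block and each library left out were alternatives, and fits without robust estimation and other transcript lengths were added after the values were seen. The scripts were tested on simulated data, drawn with a fixed dispersion. There, both cutoffs recovered 20% of true 2-fold changes in Cre+, 26% in Cre-, 30% between inputs and 2% for the difference. For true 4-fold changes the shares were 97%, 95%, 99% and 66%. A gene that was not called may therefore still differ by 2-fold. A log2 of normalized counts used a pseudocount of 0.5.

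The members and all gene lists were chosen with earlier results of these data known. Named pathway genes are those called, at most the 12 with the smallest FDR per comparison. The 3 genes most like Clta and Cltc are named by Pearson r. Of the marker lists, neuron markers had 3 of 10 called higher in Cre- and 2 of 10 lower in Cre+. Proprioceptor markers had 6 of 6 higher in Cre- and 1 of 5 in Cre+. Glia markers had 3 of 7 lower in Cre- and 0 of 6 called in Cre+, and 1 further marker of this list is not reported here. Fibroblast markers had 1 of 5 lower in Cre- and 0 of 4 called in Cre+, macrophage markers 0 of 3 and 0 of 2, and endothelial markers 0 of 3 in Cre- and 1 of 4 higher in Cre+. Transcripts and exon overlaps came from GENCODE M21 and gene coordinates from RefSeq, both on GRCm38, the build of mm10. Figures were drawn with matplotlib 3.10.9.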

Additional observations from a re-analysis of the deposited data

Results flagged for a closer look

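For 4 pathway genes the enrichment in the pull-down differed between libraries labelled Cre+ and Cre- by a test of the difference itself (edgeR interaction term, FDR below 0.1 and 2-fold). The value was 1.47 on the log2 scale for Igf1r, -2.15 for Sort1, -1.76 for Amph and -1.31 for Snap91, each as Cre+ minus Cre-. Igf1r was above its inputs in all 3 Cre+ pull-downs. Sort1, Amph and Snap91 were above their inputs in all 3 Cre- pull-downs. The summed neuron markers also lay above their inputs in every Cre- pull-down and overlapped them in Cre+. Their part in these differences was not tested.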

How the results depend on the processing

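With 3 libraries a group, calls depended on single libraries. In Cre+, leaving out 1 library gave 0 to 1 members past the cutoffs, 0 to 12 pathway genes called higher and 0 to 6 lower. In Cre- it gave 1 to 2, 12 to 14 and 0 to 2, and for the difference 0 to 3, 0 to 6 and 0 to 12. DESeq2 called 13 pathway genes higher in Cre+, and for the difference 4 higher, 7 lower and 1 member. Fitting all 12 libraries together called 13 higher and 2 lower in Cre+ and 8 higher in Cre-. Scaling by library size alone called 2 lower in Cre+, 7 higher, 1 lower and 0 members in Cre-, and 6 lower for the difference, where upper-quartile scaling called 5. Without the fold limit 4 members and 4 lower pathway genes passed in Cre-. At an FDR of 0.05 the difference had 0 members and 0 lower genes. The cause of each change was not tested. Over all genes, upper-quartile scaling called 249 higher and 266 lower in Cre+ and library size alone 192 and 699, DESeq2 1103 and 568, all 12 libraries together 1254 and 955 and an FDR of 0.05 139 and 26, against 422 and 196. Leaving out 1 library gave 4 to 803 higher and 0 to 540 lower in Cre+. In Cre- library size alone called 429 and 1238, all 12 libraries together 270 and 173 and no fold limit 1502 and 1284, against 693 and 672. For the difference upper-quartile scaling called 82 and 206, library size alone 69 and 275, DESeq2 614 and 428 and an FDR of 0.05 35 and 61, against 207 and 180, with 13 to 717 and 30 to 697 on leaving out 1 library.

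A replicate block was fitted in Cre- only. Same-numbered Cre- libraries deviated together with r of 0.0716, 0.0308 and 0.133, and each correlated best with its own number, which is a hint from the data. With the block, 704 genes were higher and 792 lower, 1 member passed and 14 pathway genes were higher. No block was fitted in Cre+, for the difference or for the inputs, because the Cre+ columns could be tied to their group only. A block on their column numbers would have rested on numbers not tied to samples. As a description, Cre+ columns with the same number deviated with r of -0.0103, -0.00297 and 0.0105, and columns 1 and 2 did not correlate best with their own number.

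With the transcript length implied by the authors' FPKM, chosen after seeing the data, mean ratios moved by more than 1 SD for 13 of 32 values. The Clta share of light chains was 65.4% in Cre+ inputs, 62.5% in Cre- inputs and 53.9% in Cre- pull-downs. Light to heavy chain was 1.34 in Cre- pull-downs, Clta to Cltc 0.606 in Cre+ pull-downs, and Cltb to Cltc 1.15 in Cre- inputs and 0.619 in Cre- pull-downs. Ap2m1 to Ap2b1 was 0.721 and 0.242 in Cre+ inputs and pull-downs and 0.601 and 0.521 in Cre-. Both alpha genes to Ap2b1 were 1.05 in Cre- pull-downs, and the Ap2a1 share was 22.0% in Cre+ inputs. Ap2s1, with 72 counts at the lowest, had the largest SE of the members in Cre+ (0.71).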
